A study of Mus musculus with 4 samples.

Results

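The genes described here encode the subunits of voltage-gated sodium and calcium channels, taken as every gene symbol that starts with Scn, Cacna, Cacnb or Cacng and follows the naming pattern of these families. The rule found 40 of the 18042 genes in the table, 14 of sodium channels and 26 of calcium channels, and used no measured value. RNA was sequenced from the hippocampal dentate gyrus of 2 mice in which Eed was conditionally knocked out (Eed cKO) and 2 wild-type (WT) mice, all C57BL/6 and at postnatal day 14, which the series' design text calls biological replicates. Eed encodes a subunit of Polycomb repressive complex 2, which methylates histone H3 at lysine 27. Which exons were deleted, by what driver and in which cells, and the sex and litter of the mice, is not given in the sources used here. In bulk tissue, fewer cells of a type and less RNA per cell cannot be told apart.

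A voltage-gated sodium channel has a large pore-forming alpha subunit that opens on depolarization and carries the upstroke of the action potential, together with small single-pass beta subunits that tune its gating and its place in the membrane. A calcium channel has a pore-forming alpha1 subunit that sets its type, an extracellular alpha2delta subunit and a cytoplasmic beta subunit that bring it to the surface. High-voltage-activated types trigger transmitter release and signal to the nucleus, while the T type opens near rest and supports burst firing. Granule neurons, the principal cells of the dentate gyrus, mature over the first postnatal weeks and fire sparsely.

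Whole read counts of each library were recovered from the deposited group means, and the libraries are called Eed cKO A, Eed cKO B, WT A and WT B. They held between 17263273 and 17789587 counts. Eed had 133 and 142 counts in Eed cKO A and B, against 251 and 301 in WT A and B, which left 50.2% of the WT mean (limma, log2 fold change -0.98 ± 0.14 SE, adjusted p = 0.0189). Libraries stood apart in ways the labels do not give. Eed cKO A had 3809 counts of Xist, a transcript of the inactive X chromosome, and at most 1 count of each of 4 Y-linked genes. Eed cKO B had 8 Xist counts and WT A and B had 11 and 8, each with at least 167 counts of every one of those Y-linked genes. By these transcripts Eed cKO A reads as female and the other libraries as male, so sex was mixed within the Eed cKO group only. The part of sex in the results was not tested. Ttr, a choroid plexus transcript, had 35706 and 23697 counts in Eed cKO A and B, against 33234 in WT A and 110 in WT B. Of the defining granule neuron markers, Prox1 had 925 and 860 counts in Eed cKO A and B, against 3381 and 4482 in WT A and B. The labelled tissue's marker was thus read in every library, but the groups differed in it. Prox1 in Eed cKO stood at 22.8% of the WT mean (limma, log2 fold change -2.11 ± 0.14 SE, adjusted p = 0.00488).

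Of the 40 channel genes, 34 reached 10 normalized counts in 2 or more libraries and were tested. In Eed cKO, 3 were higher, Cacna1g and Cacna2d2 among them, and 2 were lower (Scn3b and Scn4b) at an adjusted p of 0.05 (limma, Benjamini-Hochberg over all 15020 genes tested). That is 14.7% of the channel genes tested, beside 6.44% of all genes tested. Higher calls made up 3.54% of all genes and lower calls 2.9%. The other 29 did not pass, with log2 fold changes from -0.53 to 1.01. The log2 fold change was under 0.3 in size in 25 of the 34. Its median size was 0.19, against 0.17 over all genes, and its signed median was 0.07, against -0.00 over all genes. The 2 Eed cKO values did not overlap the 2 WT values in 20 of the 34 genes (58.8%), which is near the 56.8% of all genes. In the authors' deposited table the same 5 genes had an adjusted p below 0.05, beside 5.8% of all its genes.

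**Figure D1:**
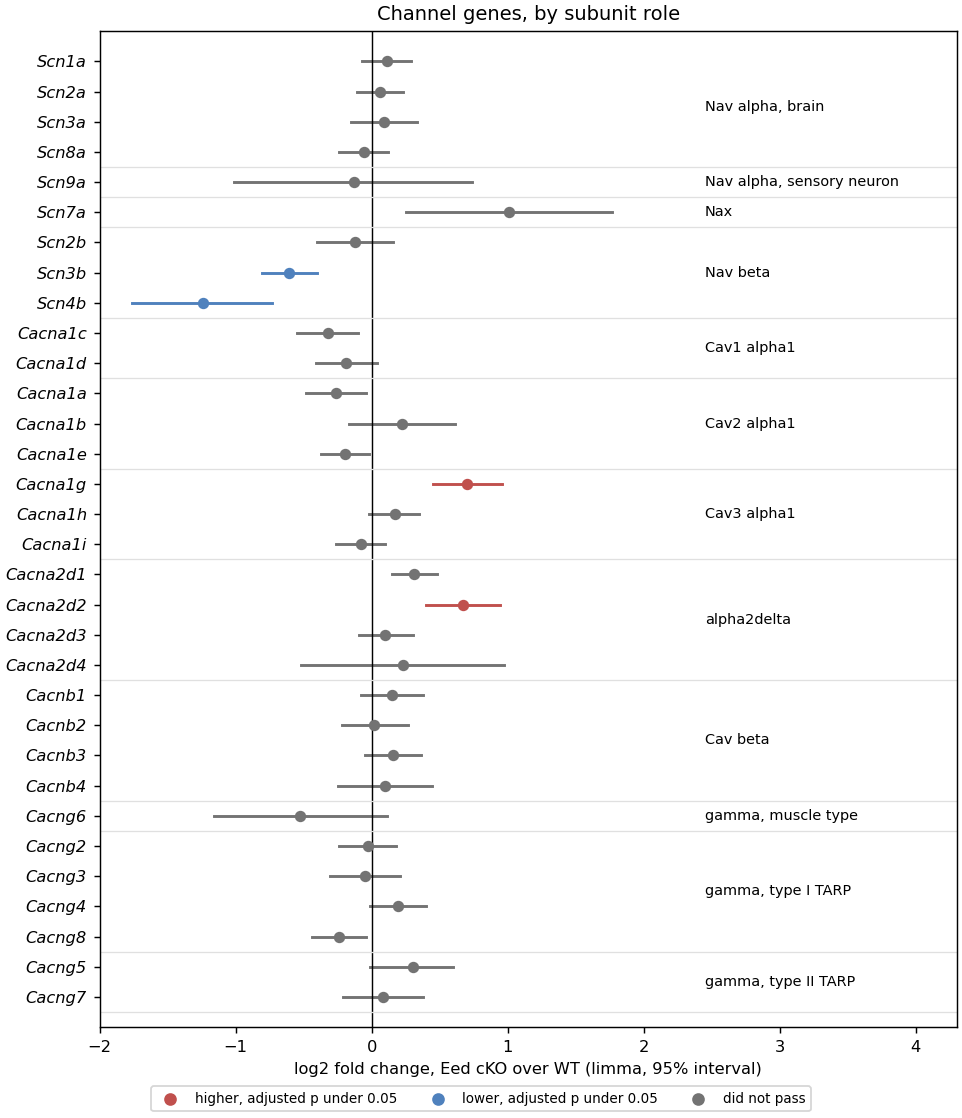
Log2 fold change (Eed cKO over WT) for 32 channel genes tested, grouped by subunit role, with 95% limma intervals (n = 2 libraries per group). Red and blue mark 2 higher and 2 lower genes at an adjusted p of 0.05. The intervals of the 4 brain sodium channel alpha genes and the 4 calcium channel beta genes all include 0.

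The sodium channel alpha genes of the brain had close values in both groups. Scn2a, which encodes a main alpha subunit of excitatory neurons and their axons, had 4386 and 4503 counts in Eed cKO A and B, against 4440 and 4142 in WT A and B. These values overlapped, and the log2 fold change was 0.06 with a 95% interval of -0.11 to 0.23 (limma, adjusted p = 0.636). Scn8a, whose product gathers at axon initial segments and nodes of Ranvier, had 5129 and 5482 counts in Eed cKO, against 5678 and 5490 in WT (log2 fold change -0.06, interval -0.24 to 0.12). Scn1a, known for its role in inhibitory interneurons and as an epilepsy gene, had 950 and 988 counts in Eed cKO, against 925 and 885 in WT. Both Scn1a values in Eed cKO lay above both WT values, by little (0.11, interval -0.07 to 0.29). Scn3a, which is mostly expressed in the embryonic and newborn brain, had 695 and 756 counts in Eed cKO, against 647 and 728 in WT (0.09, interval -0.15 to 0.33). None of these 4 genes passed in limma, edgeR or DESeq2, and none had an unadjusted limma p under 0.05. Together the 4 intervals run from -0.24 to 0.33 on the log2 scale.

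The mix of these alpha genes was also close. Per kilobase of exon, Scn2a made up 42.5% and 41.6% of the 4 brain alpha genes in Eed cKO A and B, against 41.3% and 40.1% in WT A and B. For Scn8a the shares were 40.1% and 40.9% in Eed cKO, against 42.7% and 42.9% in WT. Scn3a, the early gene, took 6.88% and 7.13% in Eed cKO, against 6.15% and 7.2% in WT. The log2 ratio of Scn3a to Scn1a counts, an early over a later gene, was -0.42 ± 0.05 in Eed cKO and -0.40 ± 0.17 in WT (SD, n = 2 each), a difference of -0.02 that is smaller than either SD. The ratio of Scn3a to Scn8a was -2.87 ± 0.02 in Eed cKO and -3.02 ± 0.15 in WT. The difference of 0.15 was about the size of the WT SD and larger than the Eed cKO SD. Both Eed cKO values (-2.88 and -2.86) were above both WT values (-3.13 and -2.91). An exact two-sided permutation test of 2 against 2 libraries cannot give a p below 0.333, and no test was run on either ratio.

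**Figure D2:**
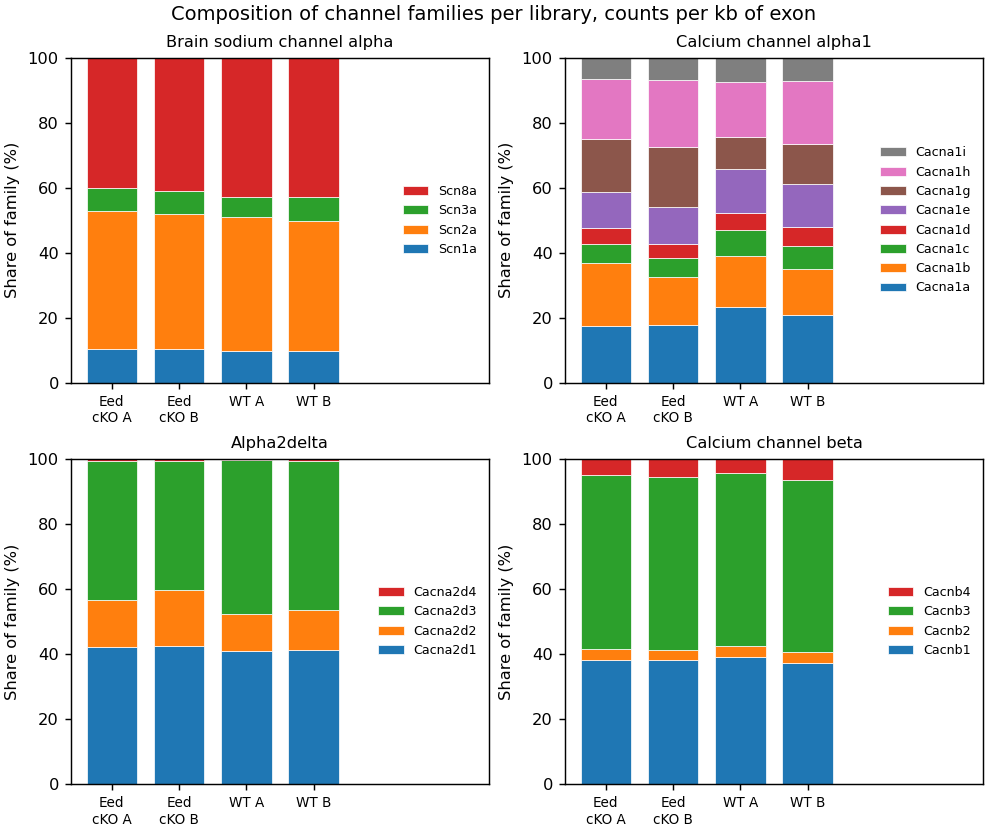
Share of each gene within 4 channel families, in percent of the family's counts per kilobase of exon, for each of the 4 libraries. The 4 panels show the brain sodium channel alpha genes and the calcium channel alpha1, alpha2delta and beta genes. Cacna1g takes 16.1% and 18.4% of the alpha1 family in Eed cKO A and B, against 9.82% and 12.2% in WT A and B.

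The sodium channel alpha genes of peripheral sensory neurons and skeletal muscle were hardly read. Scn10a and Scn11a, sodium channel genes of pain-sensing neurons, lie side by side on the minus strand of GRCm38 chromosome 9, at 119608456 to 119719322 and 119753759 to 119825456. Scn10a had 8 and 2 counts in Eed cKO A and B, against 0 and 0 in WT A and B. Summed over the group, that is 10 counts in Eed cKO (exact 95% Poisson interval 4.8 to 18.4), against 0 in WT (0 to 3.69). Scn11a had 8 counts over the Eed cKO libraries (3.45 to 15.8) and 3 over the WT libraries (0.619 to 8.77), and these intervals overlap. These intervals cover counting error only. Neither gene reached the filter, so neither was tested. Scn4a, the skeletal muscle alpha gene, had 1 count over the Eed cKO libraries and 4 over the WT libraries and was not tested either. Scn9a, an alpha gene of peripheral sensory neurons, had 51 and 26 counts in Eed cKO, against 38 and 43 in WT (log2 fold change -0.13, interval -1.01 to 0.74). The values overlapped and the interval is too wide to show a difference of that size.

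Scn7a encodes Nax, a sodium sensor that is not opened by voltage. It had 82 and 48 counts in Eed cKO A and B, against 33 and 29 in WT A and B. Both Eed cKO values were above the WT values, but the Eed cKO libraries lay further apart than Eed cKO B and WT A. The log2 fold change was 1.01 ± 0.31 (limma, adjusted p = 0.119), and it was 0.63 with Eed cKO A left out and 1.38 with Eed cKO B left out. Scn7a lies in a cluster on chromosome 2 with Scn3a, Scn2a, Scn1a and Scn9a, between 65457118 and 66784914. None of the 8 channel genes tested on that chromosome passed in limma, edgeR or DESeq2, and Scn7a was the 1 with an unadjusted limma p under 0.05.

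The sodium channel beta genes held both of the lower calls. Scn3b, a beta gene prominent in the hippocampus, had 4749 and 4538 counts in Eed cKO A and B, against 7569 and 6696 in WT A and B. The groups were far apart relative to their spread, with means of 4646 ± 129 normalized counts in Eed cKO and 7086 ± 584 in WT (SD, n = 2 each). Eed cKO thus held 65.6% of the WT level (limma, log2 fold change -0.61 ± 0.08, adjusted p = 0.0163). Scn3b (ENSMUSG00000049281) lies on GRCm38 chromosome 9, 40269217 to 40291618, plus strand. Without Eed cKO A the log2 fold change was -0.64 (adjusted p = 0.139), and without Eed cKO B it was -0.58 (adjusted p = 0.176).

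Scn4b, whose product gives the open-channel block behind resurgent sodium current in some neurons, had 104 and 88 counts in Eed cKO A and B, against 276 and 191 in WT A and B. Both Eed cKO libraries were below both WT libraries. Means were 96 ± 10.9 normalized counts in Eed cKO and 232 ± 58.8 in WT, so 41.4% of the WT level remained (limma, log2 fold change -1.24 ± 0.21, adjusted p = 0.0285). The call was lost without Eed cKO A (-1.36, adjusted p = 0.121), without Eed cKO B (-1.13, adjusted p = 0.176) and with no filter on low genes (-1.24, adjusted p = 0.0641). Scn4b (ENSMUSG00000046480) lies at 45138395 to 45154152 on the plus strand of chromosome 9, directly beside Scn2b at 45117782 to 45130070. Scn2b, a beta gene that pairs with alpha subunits through a disulfide bond, had 2082 and 2524 counts in Eed cKO, against 2376 and 2647 in WT (log2 fold change -0.12, interval -0.40 to 0.16). These values overlapped.

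Scn4b and Scn2b are neighbours with unlike promoters, so both are shown, from RefSeq on the build GRCm38.p6, with 250 bases before and 50 bases after the annotated start. Capitals mark each CpG, the dinucleotide at which mammalian DNA is methylated and whose dense clusters are known as places where Polycomb complexes bind. The windows are chr9:45138374-45138673 for Scn4b and chr9:45117626-45117925 for Scn2b, both on the plus strand. Both reach more than 50 bases into the gene spans given above. Those spans are from GENCODE, while the windows follow RefSeq starts.
Scn4b: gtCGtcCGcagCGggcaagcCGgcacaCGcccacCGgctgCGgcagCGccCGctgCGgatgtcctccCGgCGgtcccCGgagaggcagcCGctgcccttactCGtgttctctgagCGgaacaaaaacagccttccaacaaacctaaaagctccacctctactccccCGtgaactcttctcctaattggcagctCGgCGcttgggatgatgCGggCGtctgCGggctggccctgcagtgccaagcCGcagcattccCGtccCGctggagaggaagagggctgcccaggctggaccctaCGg
Scn2b: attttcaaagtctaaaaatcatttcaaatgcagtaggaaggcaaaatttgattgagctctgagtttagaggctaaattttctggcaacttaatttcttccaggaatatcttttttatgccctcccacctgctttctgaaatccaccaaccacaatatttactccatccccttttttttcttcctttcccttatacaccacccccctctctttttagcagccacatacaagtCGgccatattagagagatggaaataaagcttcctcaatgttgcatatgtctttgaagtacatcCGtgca
The Scn4b window holds 26 CpG, more than 83.1% of all 32851 windows, while the Scn2b window holds 2, more than 14.1% of them. Binding and methylation were not measured, so these counts describe the sequence alone.

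Per kilobase of exon, Scn3b averaged 851 normalized counts in Eed cKO and 1297 in WT. Scn2b averaged 495 in Eed cKO and 536 in WT, and Scn4b 19.3 in Eed cKO and 46.5 in WT, so Scn4b was the lowest of these 3 in both groups. Granule neuron markers are given beside Scn3b and Scn4b. Of the 8 listed, 4 passed as lower (Prox1, Lct, Dsp and C1ql3) and none as higher, beside 2.9% lower calls over all genes. The log2 fold change was negative in 7 of the 8 and positive in 1. Their summed counts were 5493 and 4947 in Eed cKO, against 8709 and 11486 in WT. None of the 8 was at 0 in any library. Astrocyte markers summed to 29265 and 28972 counts in Eed cKO, against 34371 and 43005 in WT (2 of 6 fell, 1 rose), and meningeal fibroblast markers to 3871 and 3718 in Eed cKO, against 5471 and 6696 in WT (4 of 5 fell, 1 rose). The part of these markers in the Scn3b and Scn4b results was not tested.

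**Figure D3:**
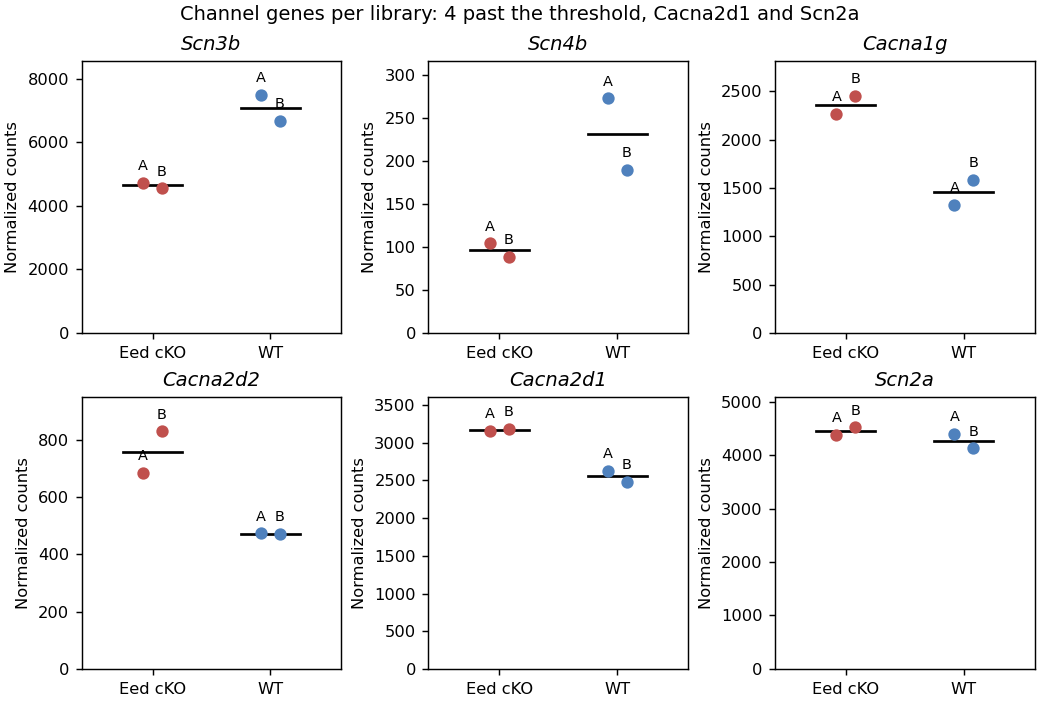
Normalized counts of each library (points, labelled A and B) and group means (horizontal lines) for 4 channel genes past the threshold, for Cacna2d1, which had an adjusted p of 0.0513, and for Scn2a, the brain alpha gene with the highest level per kilobase in Eed cKO. In the first 5 genes both Eed cKO libraries lie on the same side of both WT libraries, and in Scn2a the groups overlap.

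Among the calcium channel alpha1 genes, the T-type gene Cacna1g was the 1 that passed with all 4 libraries. It encodes a pore subunit that opens near rest and carries burst firing in the thalamus and elsewhere. It had 2276 and 2447 counts in Eed cKO A and B, against 1337 and 1592 in WT A and B. The groups did not overlap, with means of 2363 ± 131 normalized counts in Eed cKO and 1455 ± 185 in WT, a 1.62-fold difference (limma, log2 fold change 0.70 ± 0.10, adjusted p = 0.0187). Cacna1g (ENSMUSG00000020866) lies on GRCm38 chromosome 11, 94408391 to 94474198, minus strand. The log2 fold change was 0.76 without Eed cKO A (adjusted p = 0.114) and 0.65 without Eed cKO B (adjusted p = 0.155). Per kilobase of exon, Cacna1g averaged 233 normalized counts in Eed cKO and 144 in WT. The other T-type genes did not pass: Cacna1h, the T-type gene with the highest level per kilobase, had 2549 and 2679 counts in Eed cKO, against 2246 and 2446 in WT (0.17, interval -0.02 to 0.35). Cacna1i, known from the reticular thalamus, had 866 and 852 counts in Eed cKO, against 948 and 887 in WT (-0.08, interval -0.26 to 0.10).

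Markers of thalamic neurons and interneurons, cells that also use T-type channels, and of pyramidal neurons are given beside this result. Of the 6 thalamic markers, Lhx9 rose, with 1408 and 1192 counts in Eed cKO, against 457 and 349 in WT (limma, log2 fold change 1.71 ± 0.15, adjusted p = 0.00679), and Plekhg1 fell. The 6 thalamic markers summed to 4107 and 3922 counts in Eed cKO and 3634 and 3359 in WT, and the higher sum rested on Lhx9. The log2 fold change was positive in 3 of the 6 and negative in 3. Prkcd had 478 and 505 counts in Eed cKO, against 1181 and 664 in WT (-0.84 ± 0.25). It did not pass in limma (adjusted p = 0.112) and passed in DESeq2 (adjusted p = 0.00125). Of the 8 interneuron markers, Sst rose, with 4704 and 5608 counts in Eed cKO, against 2663 and 3198 in WT (0.83 ± 0.13, adjusted p = 0.0212). The other 7 did not pass in limma, and Slc32a1 passed in DESeq2 (adjusted p = 0.00767). The log2 fold change was positive in all 8, beside 49.5% of all genes tested. The groups did not overlap in 7 of the 8 (87.5%, beside 56.8% of all genes). Summed interneuron counts were 18241 and 17948 in Eed cKO and 13332 and 13783 in WT. Of the 7 markers of CA pyramidal neurons, the cells of the neighbouring hippocampal fields, 4 rose and 1 fell. Over all genes tested, 3.54% were higher calls and 2.9% lower calls, and the calls in these 3 lists stand beside those shares. Their summed counts were 19994 and 22077 in Eed cKO, against 14801 and 16121 in WT. The higher sum rested on Nov, which had 6105 and 9138 counts in Eed cKO, against 1365 and 2387 in WT. Wfs1, the 1 that fell, had 2184 and 1935 counts in Eed cKO, against 4023 and 5323 in WT. No member of these 3 lists was at 0. The part of these markers in the Cacna1g result was not tested.

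The L-type and the presynaptic alpha1 genes did not pass with all 4 libraries. Cacna1c, the main L-type gene of the brain and heart, had 1722 and 1606 counts in Eed cKO A and B, against 2266 and 1940 in WT A and B. Both Eed cKO values were lower (log2 fold change -0.32, interval -0.55 to -0.10, limma, adjusted p = 0.101), and without WT B it was -0.43 and passed (adjusted p = 0.0292). Cacna1d, the other neuronal L-type gene, had 868 and 749 counts in Eed cKO, against 907 and 940 in WT (-0.19, interval -0.41 to 0.04). Cacna1f and Cacna1s, the L-type genes of retina and skeletal muscle, stayed under the filter, with 14 and 19 counts over the Eed cKO libraries, against 12 and 11 over the WT libraries. Cacna1s shares 20% of its exon bases with an antisense gene, and whether reads were counted by strand is not given in the sources used here. Cacna1a, which encodes the P/Q-type pore of most fast synapses, had 2803 and 2681 counts in Eed cKO, against 3586 and 3057 in WT. Its log2 fold change was -0.26 (interval -0.48 to -0.04, limma, adjusted p = 0.15), and without WT B it was -0.37 (adjusted p = 0.0345). Cacna1e, the R-type gene and the alpha1 gene with the most counts, had 3981 and 3760 counts in Eed cKO, against 4589 and 4339 in WT. The groups did not overlap, and the difference did not pass (-0.20, interval -0.37 to -0.02, adjusted p = 0.162). Cacna1b, the N-type gene, had 2664 and 1910 counts in Eed cKO, against 2086 and 1816 in WT, and the groups overlapped (0.22, interval -0.17 to 0.61).

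Within the alpha1 mix per kilobase, Cacna1g took 16.1% and 18.4% of the 8 alpha1 genes tested in Eed cKO A and B, against 9.82% and 12.2% in WT A and B. For Cacna1a the shares were 17.6% and 17.9% in Eed cKO, against 23.4% and 20.8% in WT. The summed alpha1 level was 1391 and 1318 normalized counts per kilobase in Eed cKO, against 1330 and 1281 in WT. These family shares were not tested.

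Among the alpha2delta genes, which raise the number of calcium channels at the surface and shape synapses, Cacna2d2 was higher in Eed cKO. It had 687 and 827 counts in Eed cKO A and B, against 478 and 474 in WT A and B. The WT libraries were nearly equal and both Eed cKO libraries were above them, by unequal amounts. Means were 758 ± 102 normalized counts in Eed cKO and 473 ± 0.875 in WT, a 1.6-fold difference (limma, log2 fold change 0.67 ± 0.11, adjusted p = 0.0257). The call was lost without Eed cKO A (0.81, adjusted p = 0.0861), without Eed cKO B (0.53, adjusted p = 0.155) and with no filter on low genes (0.67, adjusted p = 0.0577). Cacna2d2 (ENSMUSG00000010066) spans 107399612 to 107529343 on the plus strand of GRCm38 chromosome 9, and 82 of its exon bases (1.03%) overlap an antisense gene. It is known from cerebellar Purkinje cells and interneurons, and the interneuron and pyramidal markers given above stand beside this result as well, with their part in it not tested.

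The Cacna2d2 promoter is shown as that of a channel gene that was higher in Eed cKO, at chr9:107399630-107399929 on the plus strand (RefSeq, GRCm38.p6), with each CpG in capitals. The whole window lies within the gene span given above, which is from GENCODE and starts earlier than the RefSeq start.
Cacna2d2: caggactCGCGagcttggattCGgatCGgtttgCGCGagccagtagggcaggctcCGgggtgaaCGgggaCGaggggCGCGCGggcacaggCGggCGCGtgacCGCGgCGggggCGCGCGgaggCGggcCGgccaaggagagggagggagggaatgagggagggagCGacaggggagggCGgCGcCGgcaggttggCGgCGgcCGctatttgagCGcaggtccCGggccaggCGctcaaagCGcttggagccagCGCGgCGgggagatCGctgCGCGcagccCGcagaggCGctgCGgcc
It holds 43 CpG, more than 97.4% of all windows. Genes that did not pass had windows as rich, with 42 CpG for Cacna2d1, 41 for Cacna2d3, 57 for the richest window of Cacna1c and 63 for that of Cacna1d. Promoter windows were given for 30 of the 40 channel genes, 41 windows in all, and Scn3b and Cacna1g were not among them. The median was 9 CpG per window for the channel genes and 7 over all windows, and 15 of the 41 (36.6%) held at least 20 CpG, against 26.5% of all. GGGCGG, which itself holds a CpG and is the core bound by Sp-family factors, was found on either strand in 39% of the channel windows and 35.7% of all. TATAAA was found on either strand in 4.88% of the channel windows, those of Cacna1d and Scn2a, and 13.6% of all. GGACAGC, a part of the long REST site, was found on either strand in 4.88% of the channel windows, those of Cacnb1 and Cacng6, and 6.56% of all. None of these motifs contains another.

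The other alpha2delta genes did not pass. Cacna2d1, the target of gabapentin together with Cacna2d2, had 3162 and 3171 counts in Eed cKO A and B, against 2650 and 2489 in WT A and B. The groups did not overlap and the WT libraries differed more than the Eed cKO libraries. The log2 fold change of 0.31 ± 0.07 missed the threshold in limma (adjusted p = 0.0513) and passed with edgeR (adjusted p = 0.0477), with DESeq2 (adjusted p = 0.0487) and without WT A (0.35, adjusted p = 0.0307). Cacna2d3 had 2264 and 2090 counts in Eed cKO, against 2148 and 1937 in WT (0.10, interval -0.09 to 0.30). Cacna2d4, a retinal gene, had 26 and 32 counts in Eed cKO, against 21 and 29 in WT (0.23, interval -0.52 to 0.97). The summed alpha2delta level was 602 and 605 normalized counts per kilobase in Eed cKO, against 517 and 484 in WT, so both Eed cKO libraries were above both WT libraries. Cacna2d3 took 43% and 39.8% of it in Eed cKO, against 47.2% and 45.8% in WT.

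The calcium channel beta genes, whose cytoplasmic products carry the alpha1 subunit to the membrane and set its gating, did not pass. Cacnb3 had the highest level, with 4499 and 4510 counts in Eed cKO A and B, against 4345 and 3811 in WT A and B (log2 fold change 0.16, interval -0.05 to 0.36). Cacnb1 had 3637 and 3642 counts in Eed cKO, against 3598 and 3030 in WT (0.15, interval -0.08 to 0.38). In both genes the Eed cKO libraries were close to each other and to WT A. Cacnb4, the beta gene altered in the lethargic mouse, had 927 and 1022 counts in Eed cKO, against 800 and 1052 in WT (0.10, interval -0.25 to 0.44), and 16% of its exon bases overlap an antisense gene. Cacnb2 had 940 and 888 counts in Eed cKO, against 985 and 831 in WT (0.02, interval -0.22 to 0.27). None of the 4 had an unadjusted limma p under 0.05, and edgeR and DESeq2 called none of them.

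The gamma genes are mostly auxiliary subunits of AMPA-type glutamate receptors in the brain, known as TARPs, and only the muscle types are classic calcium channel subunits. Of the type I TARP genes, Cacng4 had 2490 and 2358 counts in Eed cKO A and B, against 2012 and 2268 in WT A and B (log2 fold change 0.19, interval -0.01 to 0.40). Cacng8, the main TARP of the hippocampus, had 2245 and 2243 counts in Eed cKO, against 2851 and 2497 in WT. Both Eed cKO values were lower (-0.24, interval -0.44 to -0.04, limma, adjusted p = 0.145), and without WT B the difference was -0.33 and passed (adjusted p = 0.0456). Cacng2, the gene altered in the stargazer mouse, had 1937 and 1935 counts in Eed cKO, against 2137 and 1847 in WT (-0.03, interval -0.24 to 0.18). Cacng3 had 1245 and 1389 counts in Eed cKO, against 1266 and 1486 in WT (-0.05, interval -0.31 to 0.21). In Cacng2 and Cacng3 the groups overlapped.

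Of the type II TARP genes, Cacng7 had 3210 and 3649 counts in Eed cKO A and B, against 2935 and 3606 in WT A and B, and the groups overlapped (log2 fold change 0.08, interval -0.21 to 0.38). Cacng5 had 728 and 676 counts in Eed cKO, against 513 and 643 in WT (0.30, interval -0.01 to 0.60, limma, adjusted p = 0.211), and without WT B the difference was 0.47 and passed (adjusted p = 0.0483). The muscle-type gene Cacng6 had 25 and 28 counts in Eed cKO, against 43 and 35 in WT (-0.53, interval -1.16 to 0.11). Cacng1, the skeletal muscle gamma gene, had 3 counts over the Eed cKO libraries and 2 over the WT libraries and was not tested. No gamma gene passed with all 4 libraries in limma, edgeR or DESeq2, and Cacng8 was the 1 with an unadjusted limma p under 0.05.

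By position, Scn3b, Scn4b and Cacna2d2 lie in 3 separate places on chromosome 9, at the coordinates given above, and Cacna1g lies on chromosome 11. The 3 genes on chromosome 9 moved in both directions, Scn3b and Scn4b lower and Cacna2d2 higher. The only channel gene on the X chromosome, Cacna1f, did not reach the filter. DESeq2, which set no such filter, gave it an adjusted p of 0.983.

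**Figure D4:**
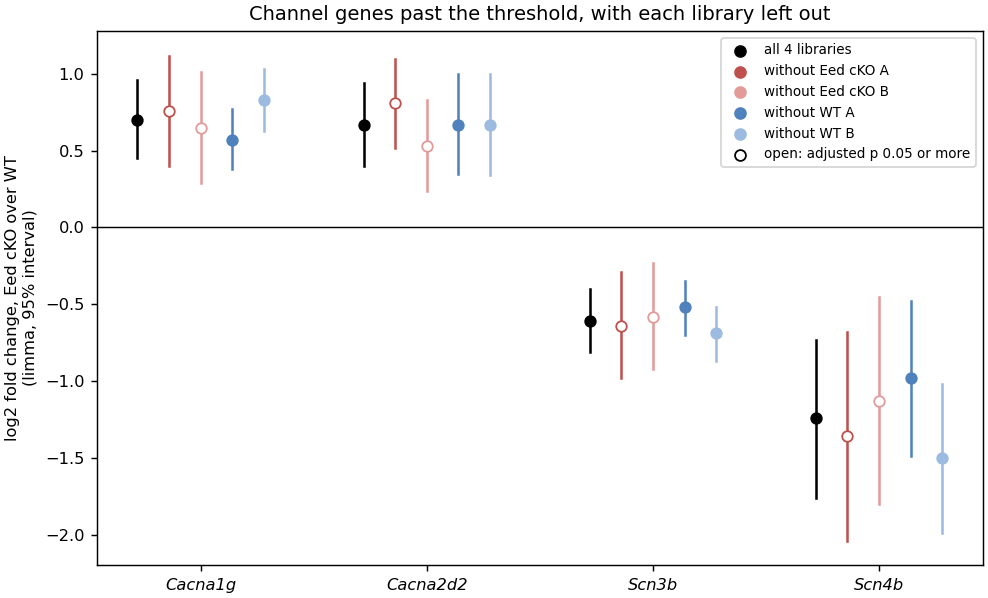
Log2 fold change (Eed cKO over WT) and 95% limma interval for Cacna1g, Cacna2d2, Scn3b and Scn4b with all 4 libraries and with each library left out. Filled points have an adjusted p under 0.05. The sign holds in every fit, and all 4 calls are lost when either Eed cKO library is absent.

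Each of the 5 calls in limma needed both Eed cKO libraries. There, none of the 5 held when Eed cKO A or Eed cKO B was absent, while all 5 held without WT A and without WT B. The same held for the transcriptome, where 967 genes passed with all libraries, 7 when Eed cKO A was absent and 31 when Eed cKO B was absent. With edgeR, only Cacna2d2 of the 5 held without Eed cKO A, and none of the 5 held without Eed cKO B. The direction of the 5 did not change in any of these fits, and their sizes moved least for Scn3b, between -0.69 and -0.52, and ran from -1.5 to -0.98 for Scn4b. WT B, which had few choroid plexus reads, was not needed for any of the 5 calls.

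Partner genes were counted in the same fit, from 4 lists of 39 genes, all of which were tested. The lists were sodium channel binding (9 genes), calcium channel regulation (17), related cation channels (9), and REST with its corepressors (4). The last 2 lists are of related channels and of repressors of neuronal genes. Of the 39, 2 rose and 4 fell (15.4%, beside 6.44% of all genes) and 33 did not pass. The lists were chosen with earlier results of these data known, so the comparison with all genes is not an independent one. The share called was 11.1%, 11.8%, 22.2% and 25% in the 4 lists, in that order. Among the 9 sodium channel binding genes, Fgf11, of the intracellular fibroblast growth factor homologues that bind the alpha subunit's tail, rose. It had 1030 and 1104 counts in Eed cKO A and B, against 741 and 752 in WT A and B (limma, log2 fold change 0.52 ± 0.08, adjusted p = 0.0183). Its relatives Fgf12 and Fgf13 did not pass, at 0.31 (adjusted p = 0.08) and -0.08 (adjusted p = 0.681).

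Among the 17 genes of calcium channel regulation, Rims2 rose and Rimbp2 fell, both scaffolds that tether calcium channels at the active zone. Rims2 had 1473 and 1573 counts in Eed cKO, against 1084 and 1155 in WT (limma, 0.45 ± 0.08, adjusted p = 0.0282). Rimbp2 had 2258 and 2603 counts in Eed cKO, against 3313 and 3461 in WT (-0.47 ± 0.09, adjusted p = 0.0385). In each gene both Eed cKO libraries were on the same side of both WT libraries. The channel inhibitor genes Rem1 and Rem2, small GTPases of the same list, did not pass (0.02 and 0.19). DESeq2 called 8 of the 39 partner genes, adding Camk2a and Camk2b, subunits of the calcium/calmodulin-dependent kinase, which are named here after their values were seen. Camk2a had 62678 and 53380 counts in Eed cKO, against 83551 and 78363 in WT (log2 fold change -0.47 ± 0.17, adjusted p = 0.153 in limma, 0.0909 in edgeR and 0.000189 in DESeq2). Camk2b had 20445 and 20014 counts in Eed cKO, against 29386 and 26752 in WT (-0.46 ± 0.11, adjusted p = 0.0613 in limma, 0.0507 in edgeR and 4.03e-05 in DESeq2).

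Of 9 related cation channel genes, 2 fell. Ryr2, the calcium release channel of the endoplasmic reticulum in heart and brain, had 1511 and 1444 counts in Eed cKO, against 2066 and 1959 in WT (limma, -0.44 ± 0.07, adjusted p = 0.0218). Tpcn1, an endolysosomal channel, had 1395 and 1193 counts in Eed cKO, against 1749 and 1832 in WT (-0.46 ± 0.09, adjusted p = 0.0427). Nalcn, the sodium leak channel, and its partner Unc79 did not pass (0.09 and -0.16). REST is a repressor that binds many neuronal channel genes in cells that are not neurons. Rest had 117 and 113 counts in Eed cKO, against 120 and 103 in WT (0.06 ± 0.16, adjusted p = 0.857). Its corepressor gene Rcor2 fell, with 229 and 274 counts in Eed cKO, against 518 and 586 in WT (-1.12 ± 0.13, adjusted p = 0.0128), and Rcor1 did not pass (-0.38 ± 0.10, adjusted p = 0.083). None of the 6 calls held when either Eed cKO library was absent (limma, 8 of 39 with an unadjusted p under 0.05 both times).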

How the data were processed

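Per the labels' protocols, dentate gyrus RNA was extracted with Trizol and prepared with an Illumina kit. Per the submitters' processing notes, HISAT2 2.1.0, DESeq2 1.2.0 and GRCm38 were used. How reads were counted, by strand or not, and against which annotation is not given in the sources used here. The authors' deposited table gives, per the file headers, the mean normalized signal of each group for 18042 genes. It also holds the authors' log2 fold change and its error, the test score, and raw and adjusted p-values.

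Each group signal is the mean of 2 whole counts scaled by size factors of 0.996 to 1.01. The counts were recovered for 100% of genes within a tolerance of 1e-08, with the largest residual 4.37e-10 in Eed cKO and 4.66e-10 in WT, and the smallest second-best residual 1.32e-06 and 9.85e-07. Groups are those of the deposited columns, and A is the library with the larger total; the replicate numbers of the titles are unknown. DESeq2 1.42.0 on these counts differed from the deposited log2 fold changes by at most 6.76e-05. Since the deposited unit is a normalized signal, the main test was limma 3.58.1 (R 4.3.3) with its trend option, on log2(normalized count + 1), a scale that understates changes of low genes. Genes needed 10 or more normalized counts in 2 or more libraries, and genotype was the only term. edgeR 4.0.16 and DESeq2 ran on the counts as alternatives, and called 999 and 1077 genes, against 967 in limma. Other alternatives were pseudocounts of 0.5 and 5, no filter, a filter of 50, TMM scaling and each library left out; the edgeR fits and the ratios with a library left out were chosen after seeing the data. The fits were tested on simulated data. Errors are SDs over 2 libraries, or standard errors for log2 fold changes. Gene positions, exon lengths (the union of all exons) and overlaps are from the GENCODE M21 annotation on GRCm38, matched by gene ID, and promoters from RefSeq by symbol.

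The members and lists were chosen with earlier results of these data known. Some results are not reported here. By rule, every channel gene may be named, with per-library values for those past the threshold and the highest of each role; of other genes, Eed, partner genes past the threshold, the next 2 of each partner list, and markers beside a result. The marker lists for CA pyramidal neurons (4 of 7 higher, 1 lower), astrocytes (1 of 6 higher, 2 lower), oligodendrocyte precursors (1 of 5 higher), smooth muscle (3 of 5 lower) and meningeal fibroblasts (1 of 5 higher, 4 lower) held calls in limma; those for oligodendrocytes, microglia, choroid plexus and endothelial cells held none in limma (1, 2, 0 and 2 members at an unadjusted p under 0.05), while edgeR called 1 endothelial and DESeq2 1 microglia marker.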

Additional observations from a re-analysis of the deposited data

How the results depend on the processing

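The 5 channel gene calls were the same with pseudocounts of 0.5 and 5. Without a filter on low genes 3 channel genes passed, Cacna1g and Scn3b among them, with 473 of all genes and 3 partner genes. With a filter of 50 normalized counts, TMM scaling, edgeR or DESeq2, 6 channel genes passed in each, Cacna2d1 being the added gene. The channel genes tested numbered 30, 34, 34 and 36, in that order. Over all genes, 937 of 12790, 967 of 15020, 999 of 15020 and 1077 of 15944 passed. With each library left out in limma, the channel genes past the threshold ranged from 0 to 10, all genes from 7 to 1498 and partner genes from 0 to 11, and with edgeR the channel genes ranged from 0 to 9 and all genes from 146 to 1723. The low ends came without an Eed cKO library, which leaves that group with 1 library, assumed to vary like the other; the cause was not tested. Log2 fold changes that changed sign with a library left out belonged to genes that did not pass in any fit. Their ranges were -0.01 to 0.46 for Cacna1b, -0.0015 to 0.45 for Cacna2d4, -0.09 to 0.14 for Cacnb2, -0.11 to 0.30 for Cacnb4, -0.13 to 0.07 for Cacng2, -0.17 to 0.07 for Cacng3, -0.07 to 0.24 for Cacng7, -0.26 to 0.02 for Scn2b, -0.00029 to 0.18 for Scn3a and -0.60 to 0.33 for Scn9a. Of the alternative values of single genes, 335 kept their direction and side of the threshold, 12 lost the threshold, 10 gained it and 13 changed sign. The difference in the log2 ratio of Scn3a to Scn1a ran from -0.14 to 0.10 and that of Scn3a to Scn8a from 0.04 to 0.26. No paired analysis was possible because the recovered libraries carry no replicate number. With 2 libraries a group, low genes such as Scn9a and Cacna2d4 have intervals too wide to show the changes seen in others.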
